A study of Rattus norvegicus with 9 samples.

Results

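The heat shock and DnaJ families were followed in the hypothalamus of female rats across sexual maturation. Members were the probe sets with a single gene symbol in the platform annotation that starts with Hspa, Hspb, Hspd, Hspe, Hsph, Hsp90 or Dnaj. Hspa5, Hsp90b1 and Hspbap1 were left out by name. The rule gave 95 of 31042 probe sets, standing for 61 of the 14217 genes named by a probe set of their own. Of these, 68 probe sets of 51 genes passed the filter on low signal and were tested. The rule used names only and no measured value, but the group was chosen with earlier results of these data known.

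The tissue was the hypothalamus of normally developing female rats, hybridised to Affymetrix expression arrays, 1 array for each animal per the labels. Juvenile rats were 26 days old (replicates 1, 2 and 3), and the labels call them the control samples. Early pubertal rats were 29 days old (replicates 7, 8 and 10) and late pubertal rats 31 days old (replicates 12, 14 and 20). The labels name no strain, treatment or transgene, so age and pubertal stage move together and cannot be told apart. With 3 arrays per stage, the number of arrays limits the precision, and p-values measure the spread between these animals.

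Chaperones bind proteins that are not yet folded or have lost their fold. Hsp70 proteins grip and release their clients in a cycle driven by ATP, in which J proteins (the DnaJ family) deliver the client and start ATP hydrolysis, and exchange factors such as the Hsp110 proteins remove the spent nucleotide. Hsp90 takes over clients such as steroid hormone receptors, the chaperonins enclose a protein inside a chamber, and small heat shock proteins hold unfolded proteins without ATP. Neurons also use J proteins at the synapse, for the folding of vesicle proteins and for removing the clathrin coat. Some of these genes are switched on by heat shock factor (HSF), which binds repeats of the bases GAA and their complement TTC, spaced by any 2 bases.

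By role, the 61 genes fell into 8 Hsp70 genes, 3 Hsp110 genes, 1 other exchange factor of Hsp70 (Hspbp1, which the prefix brings in although it is no small heat shock protein), 1 Hsp90 gene, 2 chaperonin genes, 7 small heat shock genes and 4 DnajA, 12 DnajB and 23 DnajC genes. The working name of the group calls it cytosolic, which holds for 41 of the 61 genes, counting the nucleus with the cytosol. Products of 10 genes belong to the endoplasmic reticulum, those of 8 to the mitochondrion, and 2 were not assigned. Hspa8, Hspa1b and Hsp90aa1 appear only on probe sets that carry several symbols, 6 of which hold a symbol of these families, so no value is given for them. Every member gene matched a RefSeq gene record of the same symbol through its Entrez identifier.

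The promoters are shown because the best known regulator of this group acts there. RefSeq windows (assembly GRCr8) from 250 bases before to 50 after the transcription start were found for 50 of the 61 genes. A run of 3 repeats, GAANNTTCNNGAA, searched on both strands, was present in 4 of the 50 windows (8%) and in 267 of 33469 windows of all genes (0.798%). The shorter GAANNTTC, which every longer run contains, was present in 11 of the 50 (22%) and in 8.59% of all windows. In the following stretches, printed 5′ to 3′ on the gene's own strand, capitals mark the bases covered by the longer motif. For Hsph1 (chr12:10427312-10427364, plus strand) the match lies from base -36 to -24, counted from the transcription start. For Dnaja1 (chr5:60638405-60638432, plus strand) it lies from base 10 to 22 downstream. For Hspe1 (chr9:64084242-64084299, plus strand) overlapping matches fill bases -65 to -48, and for Hspd1 (chr9:64084242-64084287, minus strand) bases -242 to -225.
Hsph1: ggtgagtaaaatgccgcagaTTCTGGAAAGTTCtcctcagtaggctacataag
Dnaja1: gccgggcgGAACTTTCCAGAAcgctcgg
Hspe1: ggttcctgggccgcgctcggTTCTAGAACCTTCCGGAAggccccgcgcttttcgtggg
Hspd1: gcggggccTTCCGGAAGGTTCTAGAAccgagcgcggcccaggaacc

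Hspe1 and Hspd1 encode Hsp10 and Hsp60, the lid and the barrel of the mitochondrial chaperonin. They are transcribed away from each other, their starts lie 290 bases apart and their windows share 211 bases. The 18 capital bases of Hspe1 are the reverse complement of those of Hspd1, so both lines show the same site. It was counted in the window of each gene above. A match describes these letters only, and no binding was measured here.

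Array values were compared after log2 of signal plus 16 and quantile normalization, and every level below is on that scale, with differences in log2 units ± the SE of the fit. The deposited median signal was 102 to 113 on juvenile, 79.8 to 101 on early pubertal and 102 to 122 on late pubertal arrays. The ratio of 3′ to 5′ signal of the actin controls, a sign of RNA integrity, was 2.40 to 3.16, 2.14 to 2.86 and 2.27 to 3.24, and its part in the results was not tested. Correlations between arrays ran from 0.967 to 0.979, and no 2 arrays were identical. Of 10 genes typical of hypothalamic neurons, 9 were above the filter (Pmch, Avp, Oxt, Sst, Hcrt, Gal, Trh, Nkx2-1 and Ghrh) and Sim1 was not.

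Expression of the families differed little between stages. In early pubertal against juvenile animals, limma with Benjamini-Hochberg adjustment over 18625 probe sets called 0 members, as it called 0 of all probe sets (0%). At an unadjusted p under 0.05 there were 2 members (1 higher, 1 lower), against 4.46% of all tested probe sets (1.92% higher, 2.54% lower). The 68 member differences ran from -1.44 to 0.38 with a median of 0.02, against a median of -0.00142 over all tested probe sets. Within 0.2 of no difference lay 59 of 68 members (86.8%), and 79.4% of all. Members were higher on 38 probe sets (55.9%, against 49.6% of all) and lower on 30. The ranges of both stages were separate for 5 members (7.35%, with 2 higher and 3 lower), against 8.30% of all (3.86% higher, 4.43% lower).

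Late pubertal animals gave a similar picture against juvenile animals. Limma called 0 members and 0 probe sets in all (0%), with 3 members at an unadjusted p under 0.05 (2 higher, 1 lower) against 4.14% of all (2.23% higher, 1.92% lower). The differences ran from -0.52 to 0.55 with a median of -0.02, and 59 lay within 0.2 of 0, as did 79.4% of all. Above 0 were 30 members (44.1%, against 49.6% of all). Stages did not overlap for 10 members (14.7%, with 5 higher and 5 lower), against 11.4% of all tested probe sets (5.90% higher, 5.52% lower). Both comparisons use the same juvenile arrays, so their values stand side by side and are not evidence for each other.

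Late against early pubertal animals, which share the early pubertal arrays with the first comparison, gave 0 members and 0 probe sets (0%) by limma. An unadjusted p under 0.05 was reached by 5 members (1 higher, 4 lower), against 5.21% of all (2.94% higher, 2.27% lower). The range was -0.52 to 1.25 around a median of 0.01, 36 members were higher (52.9%, against 50.1% of all), and 54 lay within 0.2 of 0 (79.4%, against 76.8% of all). Stages did not overlap for 8 members (11.8%, with 3 higher and 5 lower), against 11.3% of all (5.97% higher, 5.37% lower). In a moderated F test over the 3 stages, limma called 0 members and 0 probe sets (0%), with 3 members and 4.22% of all at an unadjusted p under 0.05. In this tissue, which mixes many cell types, fewer cells of a type and less RNA per cell cannot be told apart for any gene.

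The level at which arrays are compared matters for these counts. At the deposited level, with no normalization between arrays, the median of the 18625 probe sets moved to -0.24 in early pubertal against juvenile animals and to 0.22 in late against early pubertal animals. Only 3 of the 68 members were then above 0 in the first of these and 65 in the second. Relative to that shift 39 and 35 members were higher, close to the split on normalized values.

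**Figure D1:**
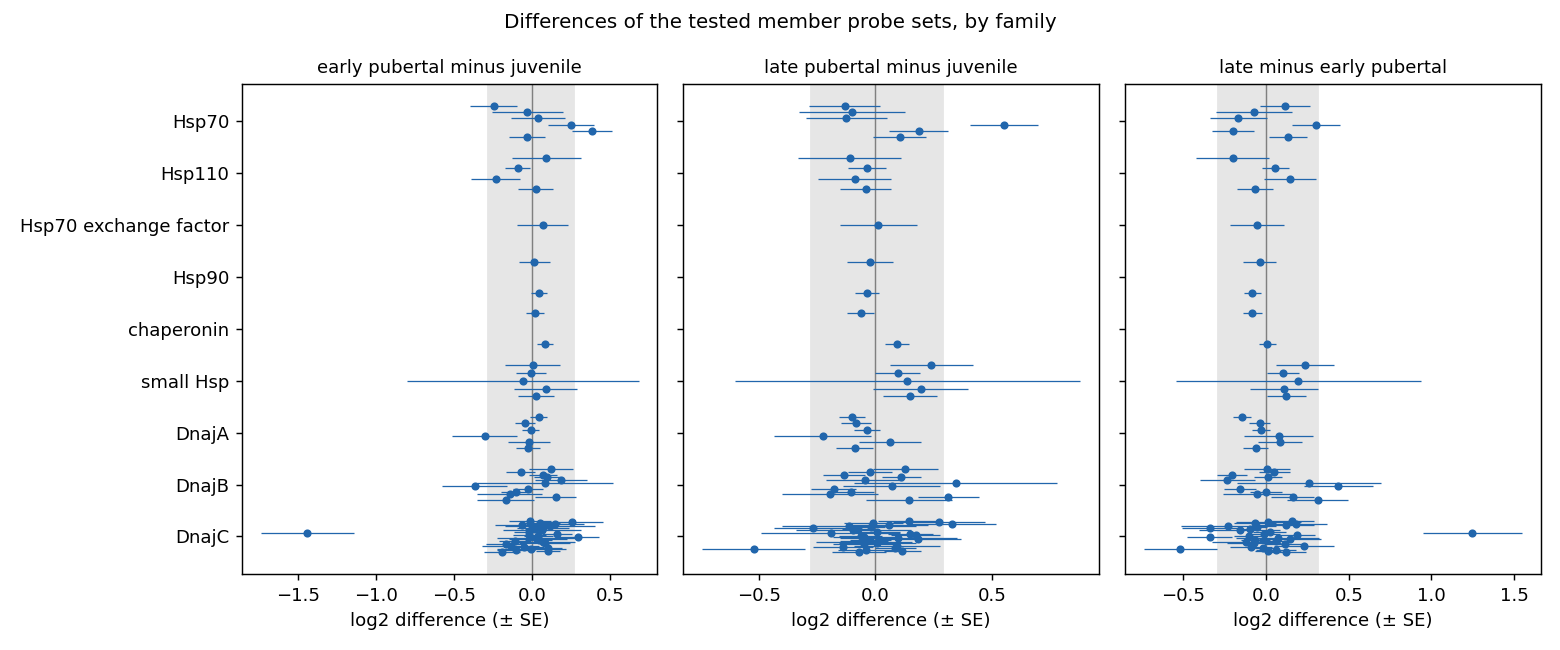
Log2 differences (horizontal axis) of the 68 tested member probe sets, 1 point each with its SE as a bar, by family (rows) in the 3 comparisons between stages; the grey band holds the central 90% of all 18625 tested probe sets. Most points lie inside the band, which runs from -0.28 to 0.27 in early pubertal against juvenile animals, and the probe set of Dnajc7 at -1.44 and 1.25 lies farthest outside it.

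The Hsp70 genes gave values for both the inducible and the divergent branch of the family. Hspa1a, the stress-inducible cytosolic Hsp70, was at 7.46, 7.21 and 7.40 in juvenile, 7.01, 7.06 and 7.27 in early pubertal and 7.43, 7.16 and 7.09 in late pubertal animals. The 3 stages overlapped, and its differences from juvenile were -0.25 ± 0.15 and -0.13 ± 0.15. Hspa9 (mortalin), the Hsp70 of the mitochondrial import motor, had -0.03 ± 0.23 and -0.10 ± 0.23 on one probe set and 0.04 ± 0.17 and -0.12 ± 0.17 on the other. Hspa14, part of the chaperone complex at the ribosome, had -0.03 ± 0.11 and 0.10 ± 0.11. Hspa2 and Hspa1l, best known from testis, and Hspa12b, known from endothelium, stayed below the filter on every probe set.

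Hspa12a, a distant Hsp70 relative that is abundant in brain, had the smallest p of the members in late pubertal against juvenile animals. Its level was 9.68, 9.005 and 9.35 in juvenile, 9.59, 9.65 and 9.54 in early pubertal and 10.09, 9.79 and 9.81 in late pubertal animals. All late pubertal arrays lay above all others, and juvenile replicate 2 was the lowest. The late pubertal mean was 9.90 ± 0.17 (SD, n = 3) against 9.35 ± 0.34 in juvenile animals, a difference of 0.55 ± 0.15 that limma did not call (adjusted p = 0.9998, Benjamini-Hochberg). Early pubertal animals, at 9.59 ± 0.06, differed from juvenile by 0.25 ± 0.15 and from late pubertal by 0.30 ± 0.15. Leaving out juvenile replicate 2 gave 0.38 for the late pubertal and 0.08 for the early pubertal difference from juvenile, and the latter was -0.01 at the deposited level.

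Hspa13 (Stch), an Hsp70 homologue of the endoplasmic reticulum, was the higher member at an unadjusted p under 0.05 in early pubertal animals. It was at 10.01, 10.11 and 10.02 in juvenile, 10.62, 10.52 and 10.15 in early pubertal and 10.16, 10.47 and 10.07 in late pubertal animals. Each early pubertal array lay above each juvenile array, replicate 10 by the least. The difference was 0.38 ± 0.13 (limma adjusted p = 0.994), against 0.19 ± 0.13 in late pubertal animals. At the deposited level, where the median of all probe sets moved by -0.24, it was 0.13.

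Nucleotide exchange factors of Hsp70 had differences from juvenile between -0.23 and 0.09. Hsph1, an Hsp110 protein induced by heat, was at 11.06, 11.20 and 11.24 in juvenile, 10.98, 11.04 and 11.21 in early pubertal and 11.03, 11.27 and 11.10 in late pubertal animals on its brighter probe set, with differences from juvenile of -0.09 ± 0.08 and -0.04 ± 0.08. Its dimmer probe set had 0.09 ± 0.22 and -0.11 ± 0.22. Hspa4 had -0.23 ± 0.16 in early pubertal animals, where replicate 7 stood low at 8.90, and -0.0074 without that animal. Its late pubertal difference was -0.09 ± 0.16. Hspa4l had 0.02 ± 0.11 and -0.04 ± 0.11, and Hspbp1 had 0.07 ± 0.16 and 0.01 ± 0.16. All 4 tested Hsp110 probe sets were below juvenile in late pubertal animals, with a median of -0.06, and 0 of the 4 had an unadjusted p under 0.05. The count was the same at the deposited level and with median centring, but 2 of the 4 were above juvenile without juvenile replicate 1, 2 without juvenile replicate 3 and 1 without late pubertal replicate 12.

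Hsp90ab1, the constitutive Hsp90 that holds steroid hormone receptors ready for ligand, varied little. Its probe set 1375336_at was at 12.24, 12.14 and 12.30 in juvenile, 12.23, 12.28 and 12.30 in early pubertal and 12.18, 12.22 and 12.18 in late pubertal animals. The late pubertal arrays lay below the early pubertal ones, by 0.08 on average (difference -0.08 ± 0.05), and overlapped the juvenile ones. At the deposited level, where all probe sets moved by 0.22, this difference turned to 0.08. The other probe set, 1375335_at, gave -0.04 ± 0.10 for late against early pubertal animals.

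The chaperonin pair that shares a promoter region was among the steadiest members. Hspe1 was at 11.24, 11.30 and 11.22 in juvenile, 11.34, 11.32 and 11.35 in early pubertal and 11.34, 11.38 and 11.33 in late pubertal animals. Every pubertal array lay above every juvenile array, by 0.08 ± 0.05 and 0.09 ± 0.05 on average, and its SD within stages of 0.03 was the lowest of the members. The early pubertal difference turned to -0.12 at the deposited level. Hspd1 was at 11.60, 11.54 and 11.64 in juvenile, 11.53, 11.70 and 11.60 in early pubertal and 11.54, 11.49 and 11.57 in late pubertal animals. Its stages overlapped, with differences from juvenile of 0.02 ± 0.06 and -0.06 ± 0.06.

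Small heat shock proteins were measured on 5 tested probe sets of 4 genes. All 5 were higher in late pubertal than in juvenile animals, with a median of 0.15, and higher than in early pubertal animals, with a median of 0.12, while 0 of the 5 reached an unadjusted p under 0.05 in either comparison. Both counts were also 5 with median centring, and 4 or 5 when 1 array was left out. They were 5 at the deposited level too, where all probe sets moved by 0.22 in late against early pubertal animals. Relative to the median of all probe sets at that level, both were again 5. The median against early pubertal animals was 0.05 without early pubertal replicate 8 and 0.23 without late pubertal replicate 12, and that against juvenile animals was 0.10 without juvenile replicate 3 and 0.31 without late pubertal replicate 12. In early pubertal against juvenile animals 3 of the 5 were higher, 1 with median centring and 1 to 5 with 1 array left out. At the deposited level, where all probe sets moved by -0.24, 0 were higher, and 2 were higher relative to that shift. Hspb1 (Hsp27), which binds actin and is found in glia and vessels, was at 8.38, 8.74 and 8.14 in juvenile, 8.51, 8.07 and 8.69 in early pubertal and 8.53, 8.68 and 8.77 in late pubertal animals. Its stages overlapped and the late pubertal difference was 0.24 ± 0.18. Hspb6 (Hsp20) had 0.10 ± 0.10, and Hspb8 (Hsp22), the partner of Bag3 in autophagy, had 0.20 ± 0.20 and 0.15 ± 0.12 on its 2 probe sets. Hspb7, a gene of heart muscle, was the least steady member, with an SD within stages of 1.25 and levels from 4.93 to 7.86. Hspb2, Hspb3 and Hspb9, known from muscle and testis, stayed below the filter.

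Cryab (alpha-B-crystallin), a small heat shock protein of glia whose symbol the rule does not reach, was read beside these members. It was at 9.28, 9.23 and 8.75 in juvenile, 9.29, 9.38 and 9.67 in early pubertal and 9.55, 9.51 and 9.53 in late pubertal animals. Neither pubertal stage overlapped the juvenile one, although early pubertal replicate 7 and juvenile replicate 1 nearly met. The differences were 0.36 ± 0.14 and 0.44 ± 0.14, which limma did not call. Markers of the cell types of this tissue were counted over the same arrays, and limma called 0 of them. The counts below are for late pubertal against juvenile animals, where 49.6% of all probe sets were higher. Of 10 genes of the leptomeninges, 10 were higher in late pubertal than juvenile animals, with summed signals of 7777 to 9852 in juvenile, 8152 to 12038 in early pubertal and 9654 to 10994 in late pubertal animals. Of 10 astrocyte genes 8 were higher, with sums of 35969 to 36151, 36532 to 38218 and 36161 to 39160. Of 10 genes of endothelium and mural cells 6 were higher, with sums of 4016 to 5171, 4435 to 5834 and 5089 to 5244. Of 8 tested oligodendrocyte genes 4 were higher and 4 lower (median -0.01), with sums of 27839 to 32785, 30433 to 31822 and 30135 to 30725. Of 5 tested choroid plexus genes 3 were higher, and of 2 tested genes of red blood cells 2. Of 10 neuronal genes 8 were lower (median -0.10), and of 9 tested microglial genes 8 were lower (median -0.19). By limma, 3 leptomeningeal, 4 astrocyte and 2 endothelial or mural genes were higher at an unadjusted p under 0.05, against 2.23% of all. At that p 1 neuronal and 1 microglial gene were lower, against 1.92% of all, and 0 oligodendrocyte, choroid plexus or red blood cell genes differed. The part of these cell types in the small heat shock levels was not tested.

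**Figure D2:**
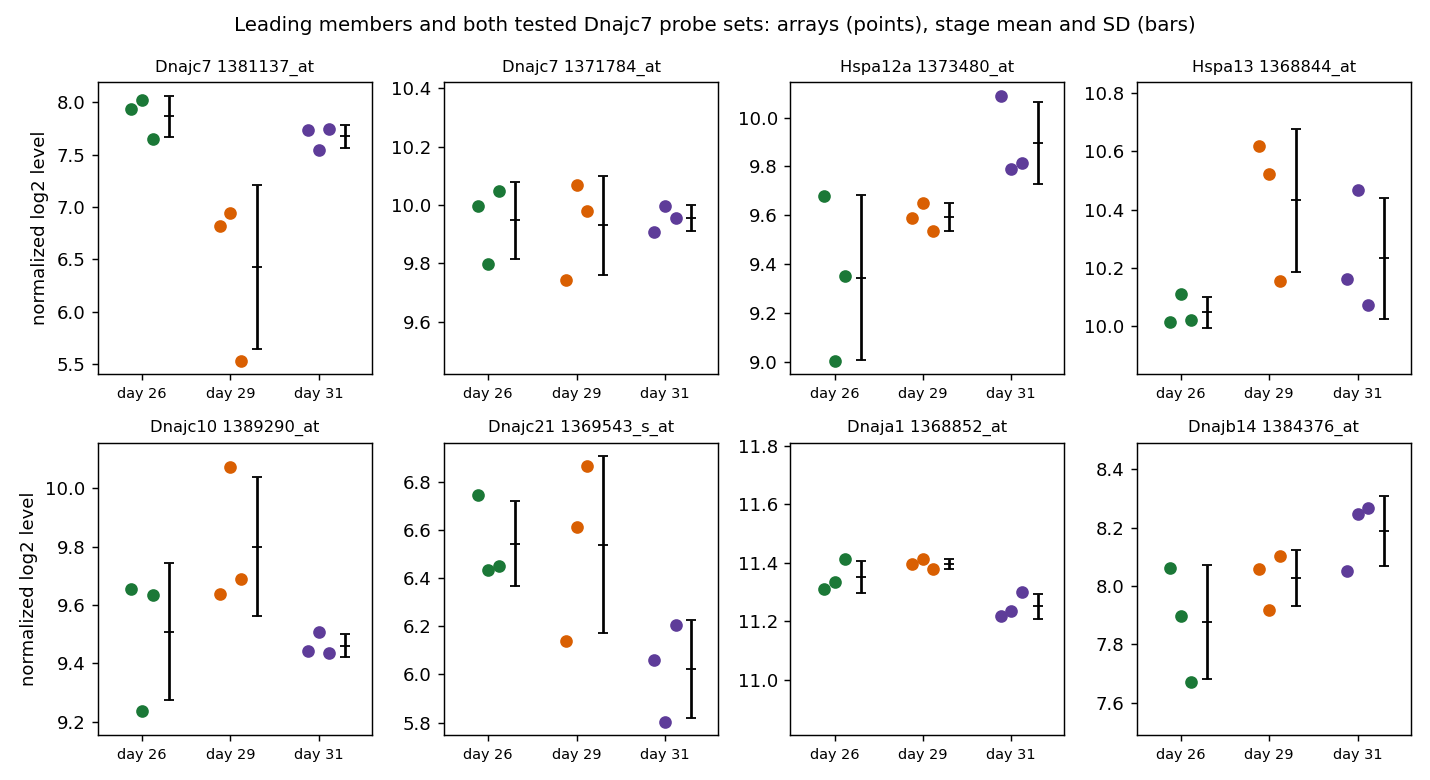
Log2 level (vertical axis, 1 scale per panel) of 8 member probe sets by stage, with 1 point per array and the stage mean with its SD as bars. Dnajc7 1381137_at lies between 5.53 and 6.94 in the 3 early pubertal animals, and the other tested Dnajc7 probe set between 9.74 and 10.07 on all arrays.

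J proteins made up 48 of the 68 tested probe sets. Those of class A resemble the bacterial DnaJ most closely and serve the general folding cycle in the cytosol. Dnaja1, whose promoter stretch is printed above, was at 11.31, 11.33 and 11.41 in juvenile, 11.40, 11.41 and 11.38 in early pubertal and 11.22, 11.24 and 11.30 in late pubertal animals on probe set 1368852_at. The late pubertal arrays lay below all others, at -0.10 ± 0.05 from juvenile and -0.14 ± 0.05 from early pubertal animals (limma adjusted p = 0.914). The second Dnaja1 probe set did not separate the stages, with -0.08 ± 0.06 and -0.04 ± 0.06. At the deposited level, where all probe sets moved by 0.22, the first one gave 0.04 for late against early pubertal animals. Dnaja2 stayed within 0.04 of juvenile, and Dnaja3 (Tid1), the mitochondrial member, had -0.30 ± 0.21 and -0.23 ± 0.21. Of the 6 DnajA probe sets, 5 were below juvenile in late pubertal animals, with a median of -0.09, a count that was also 5 at the deposited level and with median centring, and 5 or 6 with 1 array left out.

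Class B includes the classical Hsp40 and the J proteins that keep aggregating proteins soluble. Dnajb1, the Hsp40 induced by heat, had 0.12 ± 0.14 and 0.13 ± 0.14 on one probe set and -0.07 ± 0.09 and -0.02 ± 0.09 on the other. Dnajb2, a J protein enriched in neurons, was at 10.14, 9.98 and 9.88 in juvenile, 10.04, 10.08 and 10.09 in early pubertal and 9.84, 9.999 and 9.76 in late pubertal animals. Late pubertal arrays lay below early pubertal ones by a mean difference of -0.20 ± 0.09 (limma adjusted p = 0.914) and overlapped juvenile ones. The difference turned to 0.02 at the deposited level.

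Dnajb6, a suppressor of protein aggregation, was at 9.71, 10.06 and 9.77 in juvenile, 9.80, 9.75 and 8.89 in early pubertal and 9.75, 9.87 and 10.14 in late pubertal animals. Early pubertal replicate 10 alone stood low. The early pubertal difference was -0.37 ± 0.21, and -0.07 without that animal.

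Of the class B members in the endoplasmic reticulum, Dnajb14, a membrane J protein, was at 8.06, 7.90 and 7.67 in juvenile, 8.06, 7.92 and 8.10 in early pubertal and 8.05, 8.25 and 8.27 in late pubertal animals on probe set 1384376_at. The juvenile and late pubertal ranges overlapped at their edge, and the difference was 0.31 ± 0.13 (limma adjusted p = 0.9998), against 0.14 ± 0.18 on its second probe set. Dnajb9 (ERdj4), an inducible partner of the reticulum's Hsp70, had -0.18 ± 0.10 in late pubertal animals, with no overlap. Dnajb3, Dnajb7 and Dnajb13, known from testis and cilia, stayed below the filter.

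Class C proteins share only the J domain and take part in many processes. Dnajc5, the cysteine string protein that guards vesicle proteins at the synapse, had differences from juvenile of 0.03 ± 0.06 and -0.02 ± 0.06 on its brightest probe set. On 1384001_at its late pubertal arrays, at 9.67, 9.59 and 9.47, lay below the early pubertal ones at 9.76, 10.23 and 9.75, by a difference of -0.34 ± 0.17, or -0.18 without early pubertal replicate 8 and -0.12 at the deposited level. Dnajc6 (auxilin), which with Hsp70 strips clathrin from vesicles, had 0.02 ± 0.07 and -0.08 ± 0.07 on its brighter probe set. Dnajc8, a splicing factor, had 0.16 ± 0.10 and 0.15 ± 0.10, and Dnajc3 (p58IPK), of the endoplasmic reticulum, had 0.15 ± 0.19 and 0.33 ± 0.19.

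Dnajc10 (ERdj5), a disulfide reductase of the endoplasmic reticulum, was at 9.66, 9.24 and 9.63 in juvenile, 9.64, 10.07 and 9.69 in early pubertal and 9.44, 9.51 and 9.43 in late pubertal animals on probe set 1389290_at. Early pubertal replicate 8 was the highest array and juvenile replicate 2 the lowest. Late against early pubertal animals differed by -0.34 ± 0.13 with no overlap (limma adjusted p = 0.914), by -0.20 without early pubertal replicate 8, and by -0.11 at the deposited level. Its other tested probe set gave -0.10 ± 0.09.

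Dnajc21, which acts in the making of ribosomes, was at 6.75, 6.43 and 6.45 in juvenile, 6.14, 6.61 and 6.87 in early pubertal and 6.06, 5.80 and 6.21 in late pubertal animals, near the filter level of 6.30. All 3 late pubertal arrays lay under that level, so the probe set passed the filter only through the other stages. Its late pubertal differences of -0.52 ± 0.22 from juvenile and -0.52 ± 0.22 from early pubertal animals are therefore given as a description, although both stand in the counts at an unadjusted p under 0.05.

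Dnajc7 (Tpr2), a J protein with tetratricopeptide repeats that binds both Hsp70 and Hsp90 and moves steroid receptor clients between them, showed the largest difference of the members, on 1 of its probe sets. Probe set 1381137_at was at 7.94, 8.02 and 7.64 in juvenile, 6.81, 6.94 and 5.53 in early pubertal and 7.73, 7.55 and 7.75 in late pubertal animals. The 3 early pubertal arrays lay below all 6 others, and replicate 10 was lowest by far. The means were 7.87 ± 0.20, 6.43 ± 0.78 and 7.67 ± 0.11 (SD, n = 3). The early pubertal mean was near the filter level of 6.30, and replicate 10 lay under that level. Early pubertal animals differed from juvenile by -1.44 ± 0.30, which is 2.71-fold lower on this scale, and late pubertal animals from early pubertal by 1.25 ± 0.30, or 2.37-fold higher.

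By unadjusted p the early pubertal difference of this Dnajc7 probe set was the 4th smallest of all 18625, yet limma did not call it after Benjamini-Hochberg adjustment (adjusted p = 0.994, and 0.914 for late against early pubertal animals). At the deposited level, where all probe sets shifted by -0.24 and 0.22, the differences were -1.67 and 1.47 and limma called both (adjusted p = 0.00472 and 0.0182). Without early pubertal replicate 10 they were -0.99 and 0.80 on normalized values. Late pubertal and juvenile animals overlapped, with -0.19 ± 0.30.

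The other tested Dnajc7 probe set, 1371784_at, did not show this. It was at 9.996, 9.80 and 10.05 in juvenile, 9.74, 10.07 and 9.98 in early pubertal and 9.91, 9.998 and 9.96 in late pubertal animals, with differences of -0.02 ± 0.10, 0.01 ± 0.10 and 0.02 ± 0.10. The third, 1378187_at, lay below the filter, between 4.50 and 5.56. Taking 1381137_at minus 1371784_at on each array gave -2.06, -1.78 and -2.40 in juvenile, -2.93, -3.13 and -4.45 in early pubertal and -2.18, -2.45 and -2.21 in late pubertal animals. This within-array contrast was lower in all 3 early pubertal animals than in any other. It was formed after the levels were known, so it is a description. An exact test over the 20 splits gave p = 0.1 for early pubertal against juvenile and for late against early pubertal animals. For late pubertal against juvenile animals the exact test gave p = 0.4. With 3 arrays against 3 the smallest two-sided exact p is 0.1, so this test cannot decide. The sources used here do not say which part of the transcript each probe set reads, so the measurement is of unequal change between them.

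**Figure D3:**
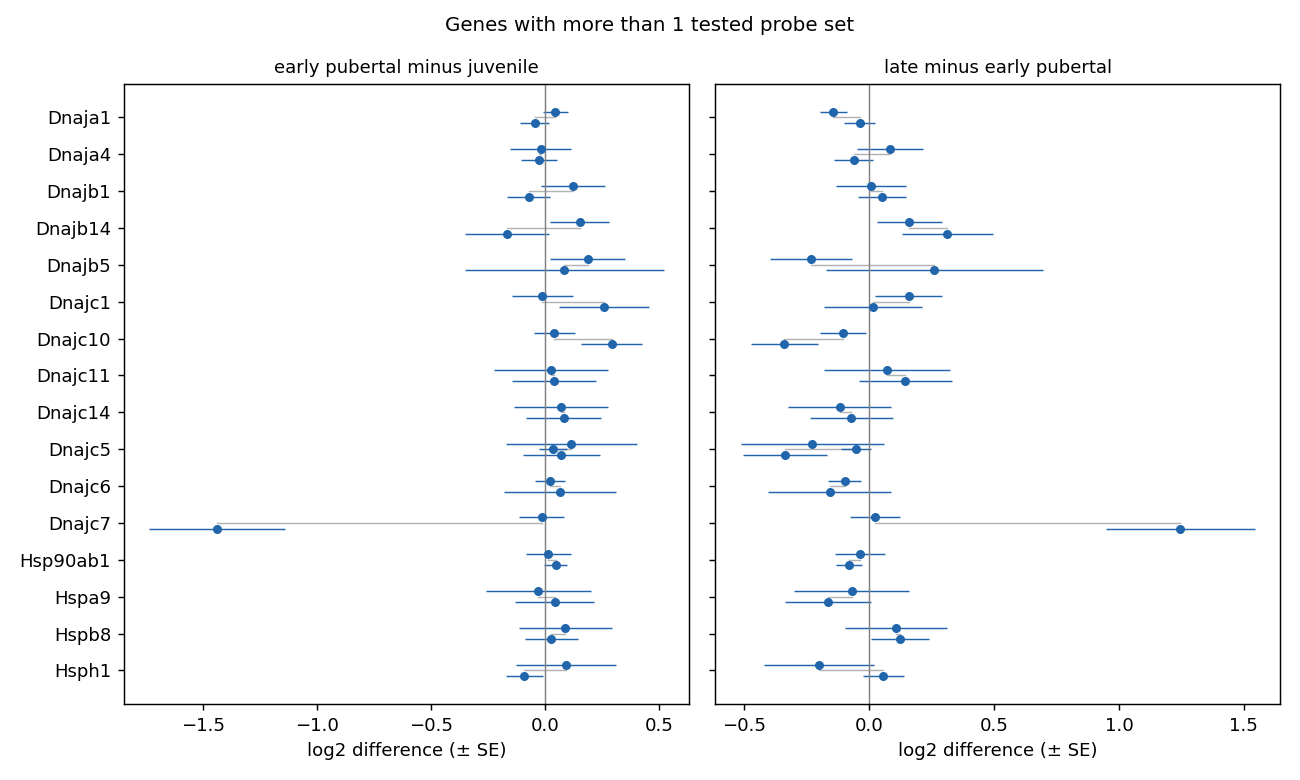
Log2 differences of genes with more than 1 tested probe set, with each gene's probe sets joined by a line and their SE as bars, for early pubertal minus juvenile and late minus early pubertal animals. Most lines are short, and that of Dnajc7 spans 1.42 and 1.22.

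The probe sets of a gene could be compared for 16 genes with more than 1 tested probe set. Their differences were less than 0.2 apart for 12 genes in early pubertal against juvenile, 14 in late pubertal against juvenile and 11 in late against early pubertal animals. Of all 68 members 59, 59 and 54 lay within 0.2 of 0 in these comparisons. Gaps between probe sets of different genes were not worked out, so closeness within a gene was not tested. The largest gaps were 1.42 (Dnajc7), 0.39 (Dnajb5) and 1.22 (Dnajc7), against next largest ones of 0.32, 0.25 and 0.49. Signs were opposite for 6, 5 and 3 of the 16 genes, and the median gap was 0.08, 0.08 and 0.12.

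Some further members whose stages did not overlap, named after their values were seen, had small differences. Dnajc13, a J protein of endosomes, had -0.11 ± 0.10 and Dnajc30, a mitochondrial J protein, -0.19 ± 0.12 in early pubertal against juvenile animals. In late pubertal against juvenile animals Dnajb4 had 0.11 ± 0.08, Dnajc27 0.11 ± 0.08, the histone chaperone Dnajc9 0.17 ± 0.11 and a probe set of Dnaja4 -0.09 ± 0.08. Dnajc17, a nuclear J protein, had 0.23 ± 0.18 in late against early pubertal animals. The stage means of the probe sets below the filter ran from 4.25 to 6.53.

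By compartment, the median differences ran from -0.06 to 0.05, and compartments were not tested against each other. Cytosolic members (43 tested probe sets) had 0.02 for early pubertal against juvenile, -0.02 for late pubertal against juvenile and 0.01 for late against early pubertal animals. Members of the endoplasmic reticulum (14) had 0.05, -0.02 and -0.06, and mitochondrial members (10) had 0.02, -0.06 and 0.04.

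**Figure D4:**
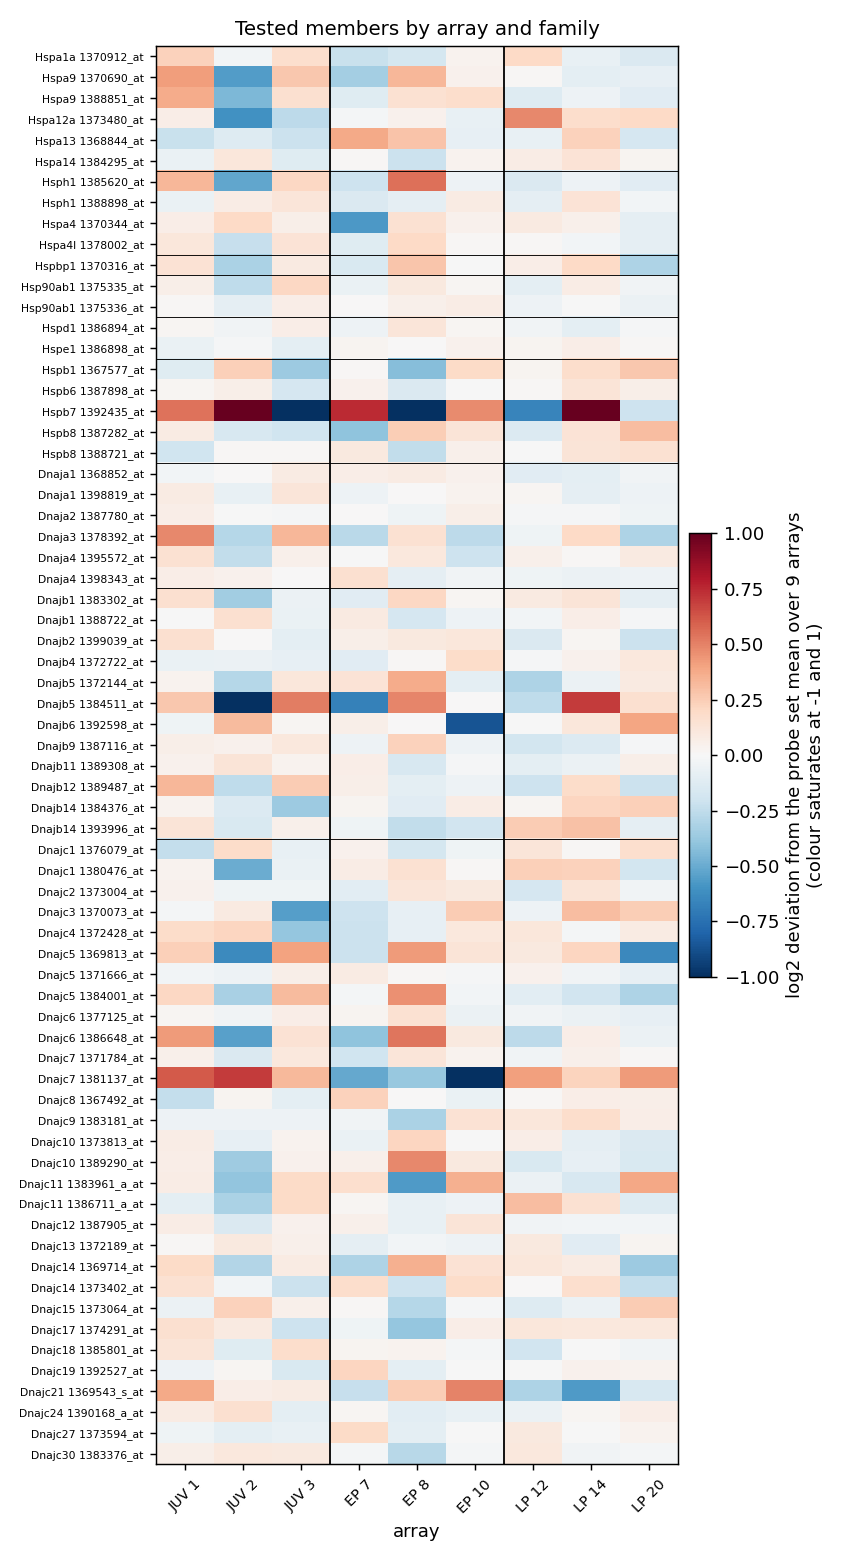
Heat map of the 68 tested member probe sets (rows, by family) on the 9 arrays (columns, by stage), coloured by the log2 level minus the probe set's mean over all arrays and saturated at -1 and 1. Juvenile replicate 2 holds many of the low cells, and Dnajc7 1381137_at is low on the 3 early pubertal arrays.

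Single arrays differed in how many members they held at an extreme. Juvenile replicate 2 had the lowest level for 19 of 68 members (27.9%), against 14.8% of all tested probe sets. It had the highest for 9 (13.2%), against 15.4%. Early pubertal replicate 8 was extreme at both ends. It had the highest level for 15 members (22.1%), against 16.5% of all, and the lowest for 14 (20.6%), against 18.9%. More than 0.5 below the mean of the other juvenile arrays on replicate 2 lay 11 members (16.2%), and 6.01% of all. These were probe sets of Dnaja3, Dnajb12, Dnajb5, Dnajc11, Dnajc5, Dnajc6, Hspa12a, Hspa9 and Hsph1. Both tested probe sets of Hspa9 were among them. For 5 of the genes a further tested probe set was not, and on it replicate 2 differed by -0.36 for Dnajb5, -0.36 for Dnajc11, -0.07 for Dnajc5, -0.08 for Dnajc6 and 0.05 for Hsph1. Since the 11 were chosen by their level on replicate 2, these values are a description.

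Of the 11 members low on juvenile replicate 2, 9 also lay below the mean of the other arrays of that stage on early pubertal replicate 7 and 9 above them on early pubertal replicate 8 (81.8% each). The shares were 78.5% and 79.6% for the 1120 probe sets of the whole table that were low on juvenile replicate 2. The actin ratio was 3.16 on juvenile replicate 2, the highest of its stage, and 2.14 on early pubertal replicate 8, the lowest of all arrays. The hexokinase ratio was 2.84 on early pubertal replicate 7, the highest of all, and 1.56 on replicate 8, the lowest. The actin and hexokinase ratios were thus both lowest on early pubertal replicate 8, and they were highest on different arrays. On early pubertal replicate 7 the actin ratio was 2.62, inside the range of its stage, and on juvenile replicate 2 the hexokinase ratio was 2.14. The ratio of the Gapdh controls varied little, from 0.95 on juvenile replicate 3 to 1.02 on juvenile replicate 2. It was 0.97 on early pubertal replicate 7 and 0.96 on early pubertal replicate 8. Late pubertal replicate 20 had the highest actin ratio of all, 3.24. More than 0.5 below the mean of the other late pubertal arrays on it lay 1 member (1.47%), against 2.42% of all tested probe sets. The part of these ratios in the member levels was not tested. The median SD within stages was 0.15 for members and 0.17 for all tested probe sets.

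**Figure D5:**
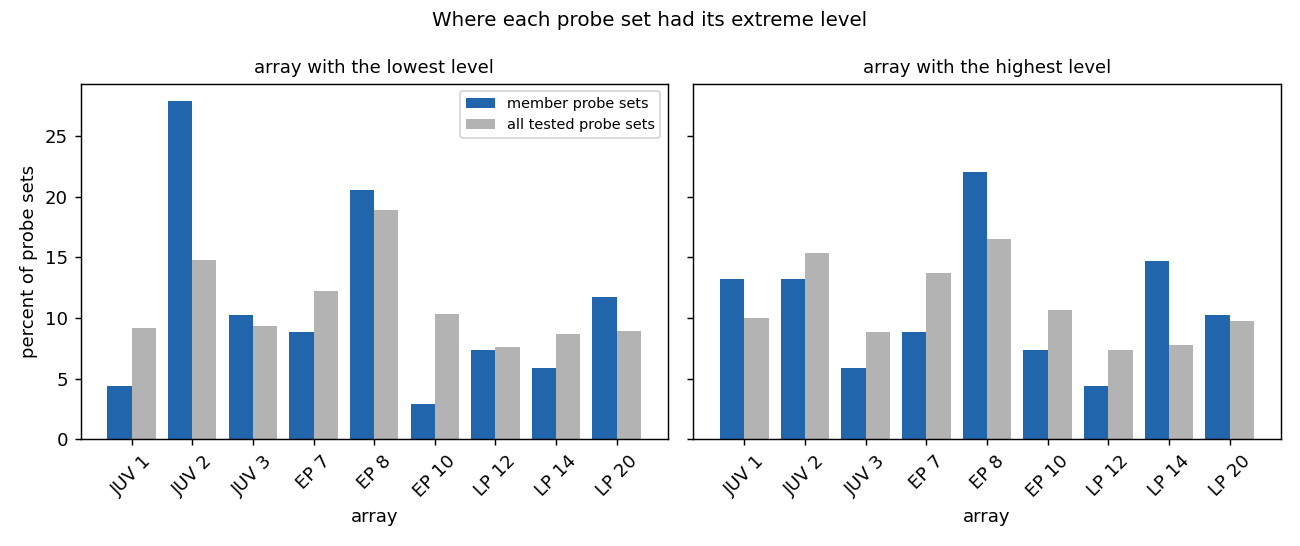
Percent of probe sets (vertical axis) that had their lowest (left) or highest (right) level on each of the 9 arrays, for the 68 members and for all 18625 tested probe sets. Juvenile replicate 2 holds 27.9% of the members' lowest levels.

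The rest of the folding machinery was described with lists of named genes, each gene by its brightest probe set. The lists name 69 genes, 1 of them a member, which was left out of the pooled counts. Apart from it 60 genes were tested, and limma called 0 of them in each comparison. In early pubertal against juvenile animals 39 were higher and 21 lower (median 0.05), where 49.6% of all probe sets were higher, and 3 had an unadjusted p under 0.05, where 4.46% of all did. In late pubertal against juvenile animals 29 were higher and 31 lower, against 49.6% higher of all, with 2 at that p, against 4.14%. In late against early pubertal animals 24 were higher and 36 lower (median -0.03), against 50.1% higher of all, with 2 at that p, both lower, against 5.21%.

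HSF genes and their regulators were higher than juvenile in 3 of 4 cases in early pubertal and 2 of 4 in late pubertal animals. Hsf1, the main heat shock factor, had 0.07 and -0.13. Cochaperones of Hsp70 were higher in 10 and 8 of 17, a count that includes 1 member. Cochaperones of Hsp90 were higher in 12 and 10 of 18. Subunits of the cytosolic chaperonin CCT and of prefoldin, which passes it new actin and tubulin, were higher in 10 and 7 of 13. Of 17 tested genes of the acute heat shock response, 10 of them members, 11 and 6 were higher, with medians of 0.02 and -0.04. Their summed signal was 18404 to 19327 in juvenile, 18262 to 19939 in early pubertal and 18737 to 19128 in late pubertal animals, so the ranges overlapped.

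Fkbp5, an Hsp90 cochaperone that lowers the hormone affinity of the glucocorticoid receptor and is induced by it, was among the higher genes in both pubertal stages. It was at 8.68, 8.61 and 8.51 in juvenile, 9.03, 8.78 and 8.82 in early pubertal and 8.89, 8.88 and 9.11 in late pubertal animals. No pubertal array overlapped a juvenile one, and the differences were 0.28 ± 0.11 and 0.36 ± 0.11, which limma did not call. Of 14 tested genes that respond to glucocorticoids, 13 and 12 were higher than juvenile, against 49.6% of all probe sets in each comparison. Limma called 0 of them. An unadjusted p under 0.05 was reached by 5 and 8, all higher, against 1.92% and 2.23% higher of all. The list was chosen with earlier results of these data known, so these counts are a description.

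Both lower genes at an unadjusted p under 0.05 in late against early pubertal animals were chaperones of the endoplasmic reticulum. Calr, a lectin chaperone that binds calcium, had 0.24 ± 0.09 in early pubertal against juvenile and -0.31 ± 0.09 in late against early pubertal animals. Hsp90b1, the Hsp90 of this compartment, had 0.12 and -0.20 ± 0.08. For both, late pubertal arrays lay below early pubertal ones, and limma called neither. Hspa5 (BiP), its Hsp70, had -0.19 ± 0.09 in early pubertal against juvenile animals, with no overlap, and 0.07 ± 0.09 in late against early pubertal animals. Of the 8 genes of this list, 3 were higher and 5 lower in late against early pubertal animals, and Pdia3, a disulfide isomerase, was at 0.13 ± 0.08.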

How the data were processed

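Affymetrix arrays of the hypothalamus of 9 rats (3 per stage) were used, grouped by the titles and source names. The authors deposited 1 signal intensity per probe set, made with MAS5 per the submitters' processing notes. The sources used here give no version or target level for MAS5. Biotin-labelled cRNA came from cDNA primed with oligo-dT, per the labels' protocols. The labels give no batch or pairing.

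Of 31099 probe sets, 57 controls were left out. Of the others, 20826 have 1 symbol, 436 several and 9780 none. Values were log2(signal + 16), quantile-normalized, since the deposited level differed between arrays, and differences understate the change of dim probe sets. Probe sets with a mean above the 40th percentile were tested (18625). Limma 3.58.1 in R 4.3.3 fitted 1 mean per stage over all 9 arrays with an intensity trend in the prior (prior degrees of freedom 5.80, residual 6) and two-sided tests, with Benjamini-Hochberg adjustment over all tested probe sets at 0.05. The code was tested on simulated data. Motifs were searched as exact letters in RefSeq promoter windows.

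Members and gene lists were chosen with earlier results of these data known, and the hypothalamic markers were added after the files were seen. Members were named where they were among the 4 smallest p in a direction of a comparison, or in the F test, where they belonged to a set of core chaperones, or where they were further probe sets of these genes. Other folding genes were named when among the 3 smallest p in a direction. Alternatives were constants of 1 and 64, median centring, the level as deposited, a filter at the 60th percentile or none, other priors, array weights, only the 6 arrays compared, 1 probe set per gene and leaving out each array.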

Additional observations from a re-analysis of the deposited data

How the results depend on the processing

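On normalized values 0 members were called by limma in any comparison or in the F test under the alternatives run. At the deposited level 1 member (Dnajc7 1381137_at) was called in early pubertal against juvenile animals, 1 in late against early pubertal animals and 1 by the F test, among 10, 21 and 16 probe sets of the whole table, and 1 probe set was called in late pubertal against juvenile animals. The median member difference there was -0.21 in early pubertal against juvenile and 0.23 in late against early pubertal animals, with the shift of all probe sets given above. With array weights 1 probe set was called in late pubertal against juvenile animals. Leaving out 1 array gave median member differences from -0.0265 (without juvenile replicate 2) to 0.0406 in early pubertal against juvenile and from -0.0515 to 0.0256 (without juvenile replicate 1) in late pubertal against juvenile animals, and 0 to 1 probe sets called in late pubertal against juvenile animals and by the F test, the 1 in each case without juvenile replicate 2. Over up to 19 settings the 126 named differences gave 2377 values, of which 159 had the opposite sign and 62 moved by more than the SD between replicates, and 54 differences never changed sign. Of the 2377 values 2 were called, both for Dnajc7 at the deposited level. The cause of these changes was not tested. No paired analysis was possible because the stages share no replicate numbers. With 3 arrays per stage, members near the filter level are the least certain, and no interval of counting error can be had from intensities.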
